A study of Mus musculus with 2 samples.

Results

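The genes described here code for the core histones H2A, H2B, H3 and H4 and the linker histones H1. They were taken by gene symbol: 52 histone genes with 53 probes among 7409 named genes with a probe on the array. Of these, 43 are replication-dependent copies, 4 are variants, 3 are germ cell forms and 2 are pseudogenes. The cells were CD1 mouse embryonic fibroblasts, primary cells on which pluripotent stem cells are often grown, inactivated with mitomycin C, a DNA crosslinker that stops division. They were replated on gelatine (55000 cells per square centimetre) and, from the next day, given 24 h of a basic medium for human embryonic stem cells, which contains serum replacement, with FGF2 at 40 ng/ml or without it. The cells of both groups were thus treated to stop division, and how fully they had stopped was not measured. Each group was 1 culture measured on 1 single-colour Illumina bead array (1 FGF2 array and 1 control array). No SD or p-value could be computed, and every ratio below describes this pair of arrays.

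Core histones form the octamer around which DNA is wrapped, and linker histones bind the DNA between octamers. Replication-dependent copies lie in clusters, are transcribed mainly in S phase, and give messages that mostly end in a conserved stem-loop instead of a poly(A) tail. Variants are coded by single genes outside those clusters, give polyadenylated messages through the whole cell cycle, and supply histones to cells that do not replicate their DNA. The copies of a family code for identical or nearly identical proteins and share most of their coding sequence, so a probe assigned to one copy may report several, and the values of copies are not independent of each other. Probe sequences were not analysed here.

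The gene of a probe was read from the number in its ID, taken as an NCBI gene ID. Of 9523 IDs with such a number, 8884 (93.3%) matched a mouse gene, and every name rests on this match. The array called 8129 of 24044 probes detected with FGF2 and 8210 in the control, where detection means a score of at least 0.99 on a scale that ends at 1. Median deposited signals of undetected probes were 133 intensity units with FGF2 and 141 in the control, and this background is part of every signal. Of the markers fixed for fibroblasts, all 5 with a probe were detected. Col1a1 (2697 with FGF2, 9119 in the control) was 3.38-fold lower, Col1a2 was 2.46-fold lower and Col3a1 1.48-fold lower, whereas S100a4 was 1.68-fold and Dcn 1.34-fold higher. Of 7 macrophage and blood markers with a probe, Lyz2 was detected on both arrays (206 with FGF2, 224 in the control) and Hba-a1 in the control only (198, just above the lowest detected signal). The endothelial marker Emcn was detected (302 with FGF2, 268 in the control), as were the epithelial markers Cldn4 and Krt18. Cldn4 had 223 with FGF2 and 203 in the control. Krt18 was 1.88-fold higher (385 with FGF2, 205 in the control). The part of such cells in the histone values was not tested.

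The upstream regions of the clustered copies and of the variants are shown first, because the comparison between these 2 classes is the one that the ratios turn on. Sequences are from RefSeq (GRCm38.p6), cover the 150 bases before the annotated start of the gene, and run 5′ to 3′ on the strand of the gene. Capitals mark 3 motifs searched on both strands: CCAAT, the TATA box written as TATAAA, and the octamer ATTTGCAT, to which the factor Oct1 binds. H4c18 stands for the H4 copies with the lowest ratios, H2bc13 for an H2B copy that shares its upstream region with an H2A copy, H3c10 for the copy with the highest ratio, and H2az1 and H3f3b for the variants. They lie at chr13:21832198-21832347 (minus strand), chr13:21716184-21716333 (minus), chr13:21717478-21717627 (plus), chr3:137864337-137864486 (plus) and chr11:116024505-116024654 (minus).
H4c18: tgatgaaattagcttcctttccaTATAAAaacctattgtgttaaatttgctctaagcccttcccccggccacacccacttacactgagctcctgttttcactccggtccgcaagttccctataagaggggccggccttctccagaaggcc
H2bc13: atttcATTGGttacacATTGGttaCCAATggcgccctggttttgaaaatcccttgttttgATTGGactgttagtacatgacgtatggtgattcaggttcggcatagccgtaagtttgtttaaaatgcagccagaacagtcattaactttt
H3c10: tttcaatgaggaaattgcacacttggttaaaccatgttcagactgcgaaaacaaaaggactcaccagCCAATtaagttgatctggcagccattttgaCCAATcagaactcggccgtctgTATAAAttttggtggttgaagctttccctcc
H2az1: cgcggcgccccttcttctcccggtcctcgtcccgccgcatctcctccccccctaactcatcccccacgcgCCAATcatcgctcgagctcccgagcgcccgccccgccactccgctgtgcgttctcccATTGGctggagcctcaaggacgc
H3f3b: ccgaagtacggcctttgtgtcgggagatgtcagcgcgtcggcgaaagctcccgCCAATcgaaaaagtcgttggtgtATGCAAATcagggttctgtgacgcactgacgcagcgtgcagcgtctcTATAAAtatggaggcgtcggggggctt

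CCAAT was common upstream of the H2A, H2B and H3 copies and rare upstream of the H4 copies. Over the 250 bases before the start, CCAAT was present in all 23 detected H2A, H2B and H3 copies with an entry in the table, but in only 1 of 8 detected H4 copies (12.5%). It occurred in 3 of the 4 variants and in 37.5% of 27025 genes. TATAAA, at any place in this window, was present in 14 of 31 detected copies (45.2%), in 1 of 4 variants and in 14.3% of all genes. The octamer was present in 5 of the 31 copies (16.1%), 3 of them H2B genes and 2 of them H2A genes, in the variant H3f3b and in 1.81% of all genes. No hits of different motifs overlapped in the histone sequences, but 3 H2A and H2B pairs share much of their window and so some of their hits. These are matches of letters, and a window without a match says nothing about the factor.

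Of the 52 histone genes, 36 were detected on at least 1 array: 32 replication-dependent copies and all 4 variants. The detected copies were 8 of 10 H2A genes, 10 of 13 H2B genes, 6 of 8 H3 genes and 8 of 11 H4 genes. H1f3, the replication-dependent linker gene measured, was not detected (score 0.73 with FGF2 and 0.91 in the control). None of the germ cell forms H2ac1, H2al1m and H2al3 was detected, nor were the pseudogenes Macroh2a3 and H2bu1-ps. The 17 undetected probes had deposited signals of 108 to 167 with FGF2 and 116 to 175 in the control, close to the background. Just inside the threshold were H4c2 in the control (score 0.993) and H1f10 with FGF2 (0.994), and just outside it was H3c11 with FGF2 (0.986).

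The replication-dependent copies were mostly lower with FGF2, by small amounts. Signals were quantile normalized, set to at least the lowest detected signal of their array (193 with FGF2, 192 in the control), and compared as the log2 ratio of FGF2 over control. Of the 32 detected copies 29 had a ratio below 0, against 47.6% of the 8384 genes and unnamed probes detected on at least 1 array. Of these copies, H3c11 and H4c2 were detected in the control only, which all but fixes the sign of their bounds. Without them 27 of 30 were below 0. The median log2 ratio was -0.28 (1.22-fold lower), with a range of -0.67 to 0.27, beside 0.01 over all detected genes. Only 3 copies (9.38%) were at least 1.5-fold lower with FGF2, beside 5.58% of all detected genes, and none of the 36 histone genes was at least 1.5-fold higher, beside 4.34%. Since copies can share a probe's signal, 29 ratios below 0 are not 29 independent observations.

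The error of a single ratio was of similar size to many of these differences. The bead error, from the spread of beads on both arrays, was 0.06 to 0.10 on the log2 scale for the detected histone genes. A wider measure came from the 243 named genes with at least 2 probes that both arrays detected. The log2 ratios of the 2 brightest probes of such a gene differed by 0.27 (root mean square). By that measure 16 of 32 copies were lower by more than the spread between probes. Only 1 was higher, H3c10, and narrowly so (0.271 against 0.268). The share of all detected genes past this spread was not counted, so these counts have nothing to be judged against. A difference between 2 probes holds the error of both, and the SD per probe was 0.19. Differences between cultures come on top of this spread and could not be measured with 1 array per group.

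**Figure D1:**
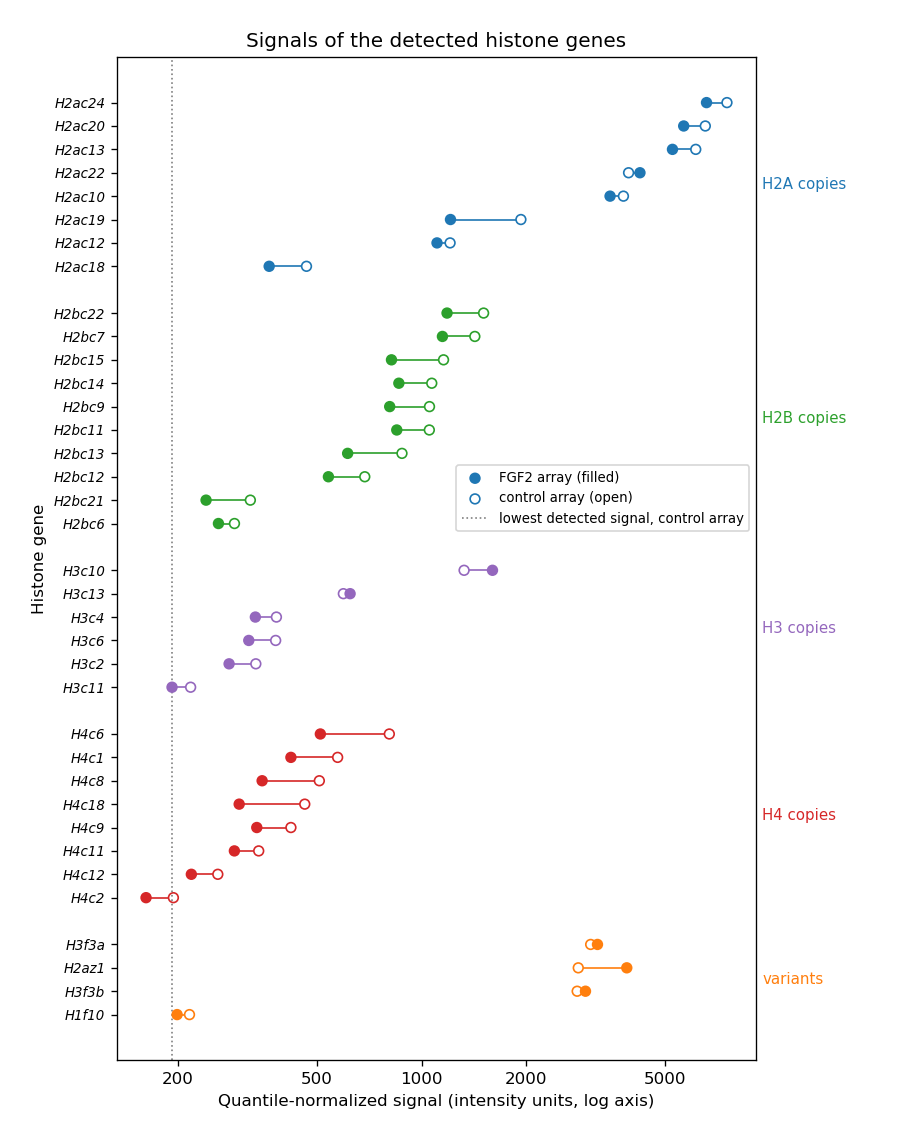
Quantile-normalized signal of the 36 detected histone genes on a log axis, with the FGF2 array as filled and the control array as open circles, ordered within each family by control signal. In 29 of 32 copies the filled circle lies left of the open one, and among the variants H2az1 lies 1.38-fold to the right.

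The H4 copies had the lowest family median. H4 is the partner of H3 in the tetramer at the centre of the octamer. All 8 had ratios below 0, with a median log2 ratio of -0.39, close to the -0.35 of the H2B copies. H4c6 had a normalized signal of 512 with FGF2, against 808 in the control, and was 1.58-fold lower (log2 ratio -0.66, bead error 0.08). H4c18, whose upstream sequence is printed above, had 299 with FGF2 and 462 in the control, 1.54-fold lower (-0.63). The 2 were the only H4 copies past 1.5-fold. H4c8 stood at 348 with FGF2 and 509 in the control (-0.55), and H4c1 at 422 with FGF2 and 574 in the control (-0.45). The copies H4c9, H4c12 and H4c11 had log2 ratios nearer to 0, of -0.33, -0.25 and -0.23. H4c2 was detected only in the control (194), just above the lowest detected signal, so its bound of -0.01 holds almost no information.

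The H2B copies were the most uniform family. H2B pairs with H2A in the dimers that flank the tetramer. All 10 detected H2B copies had lower signals with FGF2, their log2 ratios ran from -0.52 to -0.15, and none passed 1.5-fold. H2bc13 was the lowest, with a signal of 613 with FGF2 and 878 in the control (-0.52). H2bc15 followed with 820 with FGF2 and 1156 in the control (-0.50). H2bc21, on chromosome 3, had 241 with FGF2 and 322 in the control (-0.42), and H2bc9 had 810 with FGF2 and 1054 in the control (-0.38). The next 5 lay close together: H2bc22 at -0.35, H2bc12 at -0.35, H2bc14 at -0.31, H2bc11 at -0.31 and H2bc7 at -0.31. H2bc6 was the nearest to 0 (261 with FGF2, 290 in the control, -0.15).

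The H2A copies varied more among themselves than the H2B copies, with log2 ratios of -0.67 to 0.11. H2ac19, on chromosome 3, had the lowest ratio of all histone genes in the normalized signals, though not in the authors' values given below: its signal was 1211 with FGF2 and 1928 in the control, 1.59-fold lower (log2 ratio -0.67, bead error 0.07). H2ac18, its neighbour on that chromosome, had 365 with FGF2 and 467 in the control (-0.36). The other 6 H2A copies lay nearer to 0. H2ac24 had 6578 with FGF2 and 7529 in the control (-0.19), H2ac20 had 5657 with FGF2 and 6525 in the control (-0.21), and H2ac13 had 5252 with FGF2 and 6125 in the control (-0.22). H2ac10 stood at -0.13 and H2ac12 at -0.12. H2ac22 was the exception in direction, with 4236 with FGF2 and 3929 in the control (0.11), a difference close to its bead error of 0.09.

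Of the H3 copies, 4 were lower and 2 were not. H3 carries many of the tail modifications that mark active and silent chromatin. H3c10 was higher with FGF2 (1598, against 1324 in the control), at a log2 ratio of 0.27, the highest of all copies. H3c13, on chromosome 3, had 623 with FGF2 and 596 in the control (0.06), within its bead error of 0.07. H3c6 (319 with FGF2, 381 in the control) and H3c2 (280 with FGF2, 334 in the control) both had a log2 ratio of -0.26, and H3c4 had one of -0.20. H3c11 was detected in the control only and gave a bound of -0.17. By chromosome, the 27 detected copies on chromosome 13 had a median log2 ratio of -0.26 and the 5 on chromosome 3 one of -0.36, with ratios of either sign on both.

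**Figure D2:**
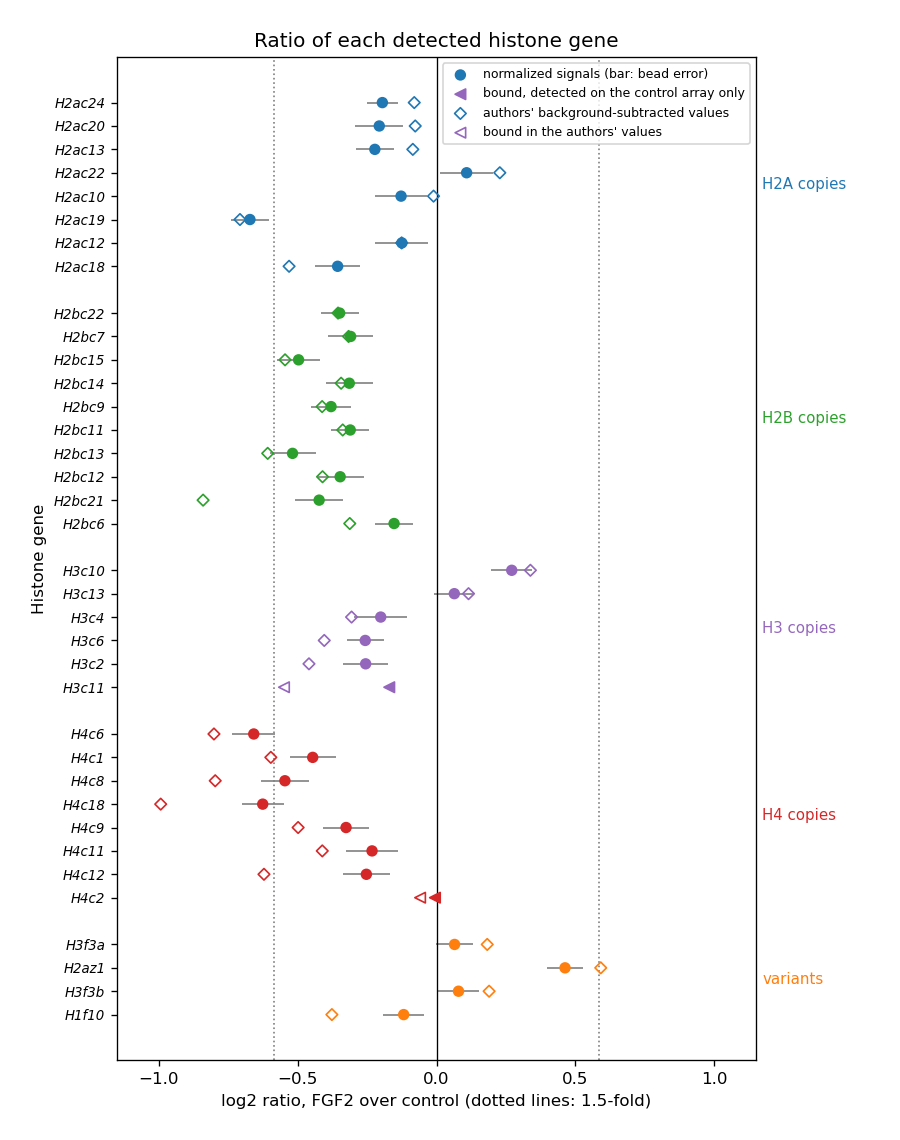
Log2 ratio of FGF2 over control for each detected histone gene from normalized signals (filled, bars are the bead error) and from the authors' background-subtracted values (open); triangles are bounds and dotted lines mark 1.5-fold. The H4 and H2B copies all lie left of 0, and the H2A copies other than H2ac19 and H2ac18 lie closer to 0 than most of them.

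Of the 4 variants, 3 had ratios above 0 and only H2az1 was far from it. H2az1 codes for the H2A variant H2A.Z, which is placed at promoters of active and poised genes. It had a normalized signal of 3883 with FGF2, against 2817 in the control, and was 1.38-fold higher (log2 ratio 0.46, bead error 0.06). This is more than the spread of 0.27 between probes of a gene. H3f3a and H3f3b code for the same replacement H3 protein, which is put into chromatin without replication. H3f3a had 3199 with FGF2 and 3058 in the control (log2 ratio 0.07), and H3f3b had 2955 with FGF2 and 2797 in the control (0.08). Their ratios are within or close to the bead error of 0.07 for each. H1f10, a linker histone variant coded outside the clusters, was near the lowest detected signal, with 199 with FGF2 and 216 in the control (-0.12). The other variant genes, among them H2ax, H2az2 and H1f0, were not analysed here.

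Set against each other, the copies had a lower median log2 ratio than the variants, -0.28 over 32 copies and 0.07 over 4 variants, a difference of -0.35. With 4 variants this difference rests on few genes. Within H3, the copies H3c2, H3c4 and H3c6 had log2 ratios of -0.20 to -0.26, whereas H3f3a and H3f3b stood at 0.07 and 0.08; H3c10 and H3c13 did not follow this order. For H2A, 7 of 8 copies were below 0 while H2az1 was above it.

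The copies were also set beside all genes of like brightness. Among all detected genes with a brighter signal of 300 to 600 intensity units the median log2 ratio was 0.02, and the 10 copies in that range had a median of -0.34. From 600 to 1500 units the values were -0.33 for 10 copies and 0.02 for all 1900 genes. At 3000 units and above the 5 copies had a median of -0.19 and the 2 variants H2az1 and H3f3a one of 0.26, with 0.00 over 616 genes. The middle 95% of all genes ran from -1.56 to 1.47 in this brightest range, from -0.84 to 0.73 at 300 to 600 units, and from -0.39 to 0.39 below 300 units. Of the 36 detected histone genes, 0 lay outside the middle 95% of genes in their own range of brightness.

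**Figure D3:**
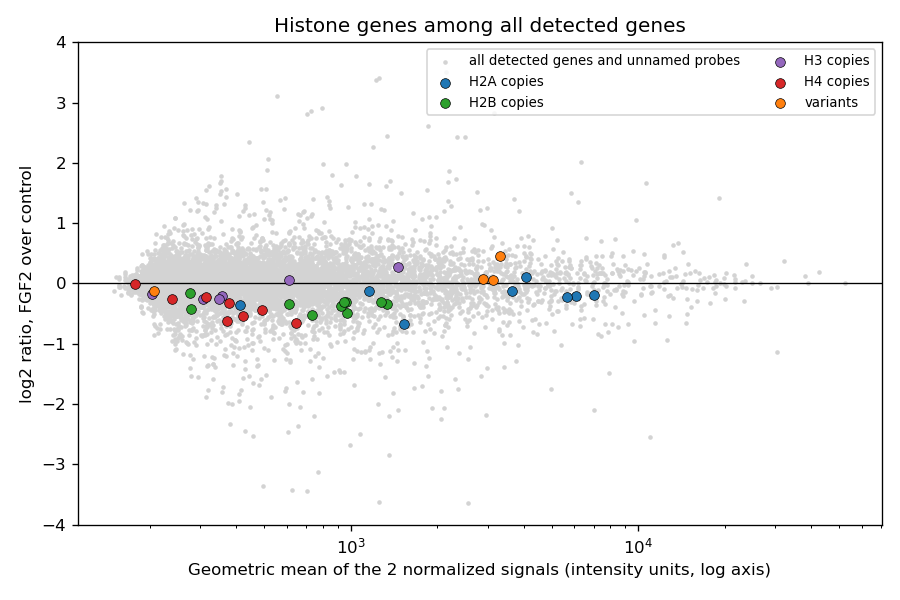
Log2 ratio of FGF2 over control against the geometric mean of both normalized signals for all 8384 detected genes and unnamed probes (grey) and the detected histone genes (coloured by family). The copies lie mostly below 0 over the whole range of signals, all within 0.7 of 0, while single other genes reach beyond 3 in either direction.

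Background in the signal shrinks the ratios of dim copies, and the authors' deposited table of the same arrays has it removed. With these values 8 copies (25%) were at least 1.5-fold lower with FGF2, beside 11.3% of all detected genes, and 1 histone gene, H2az1, was at least 1.5-fold higher, beside 11.2%. The 8 were H2ac19, H2bc13, H2bc21 and the H4 copies H4c1, H4c6, H4c8, H4c12 and H4c18. Again 29 of 32 copies were below 0, beside 46.5% of all genes. None was 2-fold lower, beside 4.64%. H4c18 came closest, at 1.99-fold lower (168 with FGF2, 335 in the control), followed by H2bc21 at 1.79-fold (107 with FGF2, 191 in the control). The H4 median became -0.61 and the median of all copies -0.41. The H2A median moved the other way, to -0.08; the table also multiplies the FGF2 array by 1.05. H2az1 stood at 1.51-fold higher, and H3f3a and H3f3b at log2 ratios of 0.18 and 0.19. The difference of the medians of copies and variants was -0.59.

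Copies that share their upstream region were also set against each other. A probe may report several copies, so a ratio may not belong to the paired gene alone. H2ac13 and H2ac22 are among the 5 H2A copies with control signals above 3000 units, whose probes were not checked for shared sequence. Many H2A and H2B genes stand head to head and are transcribed in opposite directions from the sequence between them. Of the detected genes, 3 such pairs had overlapping upstream windows, with 177 to 239 bases between the 2 starts, all on chromosome 13. H2bc13 and H2ac13, 228 bases apart, had log2 ratios of -0.52 and -0.22. H2bc12 and H2ac12 had ratios of -0.35 and -0.12, and H2bc22 and H2ac22 ratios of -0.35 and 0.11. In each of the 3 pairs the H2B ratio was below that of its H2A partner, by 0.22 to 0.46, which spans the spread of 0.27 between probes of a gene. The same order held between the whole families, with medians of -0.35 for H2B and -0.20 for H2A, so it is not particular to the pairs. Both genes of the pair H2bc12 and H2ac12 had the octamer in their window, and neither gene of the other pairs did.

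Genes that make, carry or place histones were counted from lists. Of factors for histone message processing and histone gene transcription, 13 had a probe and 6 were detected, with a median log2 ratio of -0.03. Srrt, a cap-binding partner that takes part in the 3′ end processing of histone messages, was 1.52-fold higher (774 with FGF2, 508 in the control, log2 ratio 0.61). The other 5 stayed within 1.5-fold. Of all detected genes 4.34% were at least 1.5-fold higher and 5.58% lower. Lsm10, part of the small ribonucleoprotein that guides cleavage of histone messages, stood at 0.18. Of histone chaperones and assembly factors 9 of 12 with a probe were detected, 8 of them above 0 (beside 52.3% of all detected genes), none past 1.5-fold, with a median of 0.22. Among the 8, Ubn2 was detected with FGF2 only, which fixes the sign of its bound (0.07). Ruvbl1 and Ruvbl2, ATPases of the complexes that exchange H2A for H2A.Z, had log2 ratios of 0.44 and 0.42, near the 0.46 of H2az1. In the authors' values these 2 chaperones were more than 1.5-fold higher (0.60 for Ruvbl1 and 0.77 for Ruvbl2), beside 11.2% of all detected genes. The median of the list in those values was 0.42. In the normalized signals the second detected probe of Ruvbl1 gave 0.25. Nasp, a chaperone of H3 and H4 and of linker histones, stood at 0.31. Rbbp7, a subunit of histone-binding complexes, had 0.35 on its brightest probe, but its other 2 detected probes gave -0.29 and -0.21.

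Genes of DNA replication, with which the copies are normally expressed, had a median close to 0. Of the replication list 10 of 12 with a probe were detected, 7 above 0 (beside 52.3% of all detected genes) and 3 below, with a median of 0.05. None was past 1.5-fold, beside 5.58% of all detected genes lower and 4.34% higher. In a list this short that count says little. Pcna, the sliding clamp of DNA polymerases, had 584 with FGF2 and 475 in the control (log2 ratio 0.30), and Fen1, which trims Okazaki fragments, had 712 with FGF2 and 540 in the control (0.40). Rrm2, the ribonucleotide reductase subunit that peaks in S phase, stood at 0.02. The mitosis list had a median of -0.04 over 7 detected genes, 4 below 0 (beside 47.6% of all detected genes) and 3 above. Nusap1, a spindle protein, was the lowest, with 699.6 with FGF2 and 1040 in the control (1.49-fold lower, log2 ratio -0.57, and -0.65 in the authors' values, past 1.5-fold there). Mki67, the proliferation marker Ki-67, stood at -0.23. The highest was Cenpa, the H3 variant of centromeres, whose signal was 2962 with FGF2 and 2733 in the control (0.12). Targets of p53 had a median of -0.18 over 5 genes, with none past 1.5-fold, which again says little in so short a list. Among other chromatin proteins Hmgb1, an abundant DNA-bending protein, was 1.92-fold higher on 1 probe (1426 with FGF2, 745 in the control), while its second probe was not detected. The median of that list was 0.20 over 7 genes.

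**Figure D4:**
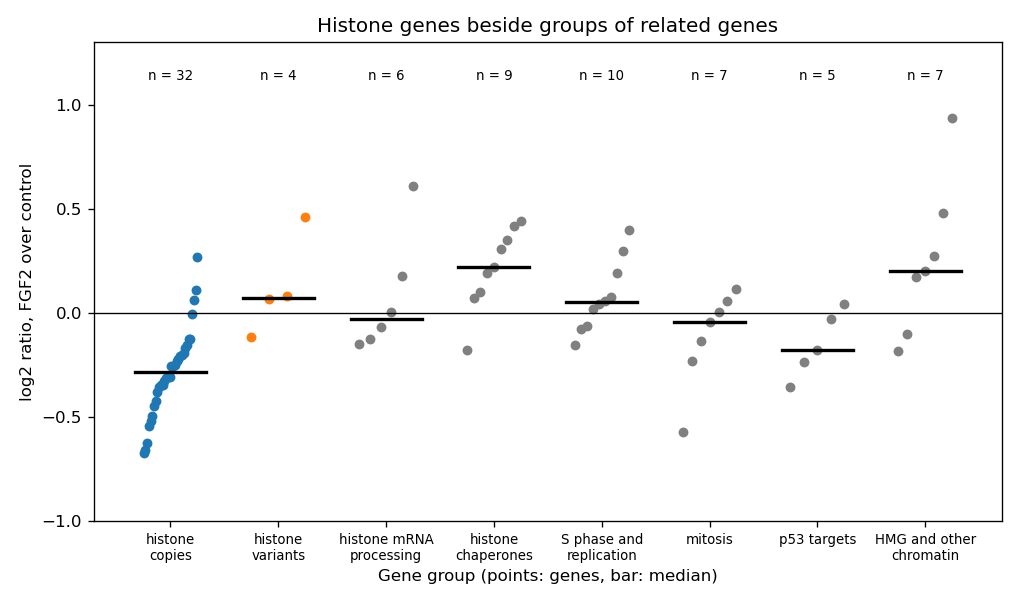
Log2 ratio of FGF2 over control for the detected members of each gene group (points), with the median as a bar and the number of genes above. The 32 histone copies have a median of -0.28, the 4 variants 0.07, the chaperones 0.22 and the replication genes 0.05.

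Histone messages with and without a poly(A) tail may be amplified unequally, and this was not tested. The labels give a linear amplification of 300 ng total RNA with 6 h of in vitro transcription, but not the primer, and no value in the files separates tailed from untailed messages. Fewer cells with histone messages and less message per cell cannot be told apart in bulk RNA.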

How the data were processed

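Total RNA of 2 cultures was measured on Illumina bead arrays. Per the file headers, the deposited array files hold an average signal intensity, a bead spread and a detection score for each probe, and the submitters' processing notes name BeadStudio 1.0. The authors' deposited table holds intensities equal to the signal minus 132, times 1.05, for FGF2 and to the signal minus 139 for the control, given exactly where the score was at least 0.99. The sources used here do not say how that factor was set.

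Signals were quantile normalized, floored at the lowest detected signal and compared as log2 ratios, with the brightest detected probe standing for each gene. There was no test, since each group had 1 array. All detected histone genes are named. From the lists, genes past 1.5-fold and histone partners are named by rule, and other examples were picked after their values were seen. Members and lists were chosen with earlier results of these data known. The calculation was tested on simulated data, with planted changes larger than any histone ratio given here and none in the dimmest probes. Recovery of smaller changes was not tested. Alternatives covered scaling, background, floor, detection, fold and probe choice. Brightness of different probes does not rank expression. Python 3.11.15, numpy 2.4.6 and pandas 2.3.3 were used.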

Additional observations from a re-analysis of the deposited data

How the results depend on the processing

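No paired analysis was possible because each group has 1 array. Of the results on histone genes, the median log2 ratio ran from -0.42 to -0.26 for the copies and from 0.07 to 0.19 for the variants under all alternatives tried, and their difference from -0.59 to -0.33. Under each change of scaling, background, floor, detection score and probe choice 29 of 32 copies were below 0 (27 of 30 with detection on both arrays). The 3 copies H2ac22, H3c10 and H3c13 were above 0 under every one. Some ratios below 0 became very small. H2ac10 stood at -0.003 with median scaling and -0.01 in the authors' values, and H2ac13 at -0.08 and -0.09. The count of histone genes at least 1.5-fold lower was 3 (9.38% of copies, beside 5.58% of all genes). It was 8 in the authors' values (25%, beside 11.3%) and 8 with the median of undetected probes subtracted (25%, beside 11.6%). With signals as deposited it was 4 (12.5%, beside 6.66%). With an added constant of 50 and no floor it was 2 (6.25%, beside 4.97%), and at a threshold of 2-fold it was 0. Background shrinks ratios of dim probes, and other causes were not tested. The count at least 1.5-fold higher was 0, and 1 in the authors' values. For single genes, 4 of 36 ratios moved by more than 0.27 in the authors' values, the same 4 did with the median of undetected probes subtracted (H2bc21, H3c11, H4c12 and H4c18), and none did under the other alternatives. The following were added after seeing the data. The median of the 4 family medians was -0.27, and among genes with a signal of at least 400 the copies had -0.33 (23 genes) and the variants 0.08 (3 genes). The median over all detected genes ran from -0.06 (signals as deposited) to 0.04 (authors' values). Background and the number of arrays limit what can be said of dim copies.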

Other observations

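The 5 H2A copies with control signals above 3000 units (H2ac10, H2ac13, H2ac20, H2ac22 and H2ac24) had probe IDs that end in numbers from 318 to 323, and their signals were at least 3476 with FGF2 and 3797 in the control. The other 27 detected copies reached at most 1598 with FGF2 and 1928 in the control. The sources used here do not say what the number at the end of an ID stands for, and whether these probes share their sequence was not tested. Without the 5 the median log2 ratio of the copies was -0.31, and -0.41 in the authors' values.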
